A study of Rattus norvegicus with 5 samples.

Results

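Myocytes from cultures given the TBX18 virus were compared between day 3 and day 14, whether or not virus RNA was seen in the single cell. The cells came from ventricles of wild type Sprague dawley rats of postnatal day 2 (P2) and were cultured as a mixture of myocytes and non-myocytes. The label of the 2 libraries compared is Adeno-TBX18, for 3 days or for 14 days, with no A83-01. An adenovirus stays outside the genome of the cell as a rule, and the transcripts it carries were counted here under the names hTBX18 and ZsGFP. A cell was taken as a myocyte where it had at least 500 genes and where M was more than 2 times S. M is the summed level of Tnnt2, Actc1 and Myh6, and S is that of the fibrillar collagen genes Col1a1, Col1a2 and Col3a1. The rule found 4323 cells, 3236 at day 3 and 1087 at day 14, among the 15118 barcodes of both libraries and the 38019 barcodes of all 5 libraries. The other 3 libraries, used only for values beside these, were Adeno-GFP at day 3, Adeno-GFP at day 14, and Adeno-TBX18 with A83-01 at 0.2 µM at day 14. A83-01 inhibits TGF-beta receptor signalling, and the treatment label of its library gives 3 days where the title gives day 14. The cells were thus chosen by their own sarcomere and collagen levels, in the libraries that are compared. Each group is 1 library, so that differences have no replicate behind them and none was tested. Intervals are exact, at 95%, and limits beside a count of 0 are set at 3 counts instead. Both cover counting error only. The day 14 tables also differ from the day 3 tables in gene list, unit and cell range. In every comparison between the days, the day and the making of the table therefore cannot be told apart.

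Ventricular myocytes contract through sarcomeres, in which troponin holds the thin filament in check until calcium binds. Tnnt2 encodes cardiac troponin T, Actc1 cardiac alpha-actin and Myh6 the fast cardiac myosin heavy chain. TBX18 is a T-box transcription factor that takes part in the development of the sinoatrial node, the natural pacemaker of the heart, and the study, by its title, is about turning ventricular myocytes into pacemaker cells. Fibroblasts of the heart make most of its fibrillar collagen and multiply in culture, whereas myocytes divide little after birth.

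Windows at the annotated starts of the 3 sarcomere genes are shown because the levels of these genes chose the cells and then moved apart between the days. They come from RefSeq, build GRCr8, and each runs from 250 bases before a start site to 30 bases after it, 5′ to 3′ along the gene. All 3 genes had an entry, and Tnnt2 had a window at each of 2 start sites. The capitals mark motifs found on either strand within 300 bases that end 50 bases after the start. Motifs searched were the T-box core GGTGTGA, the TATA box TATAAA, the MCAT element CATTCC, and the CArG box.
Tnnt2, chr13:49818873-49819152, plus strand: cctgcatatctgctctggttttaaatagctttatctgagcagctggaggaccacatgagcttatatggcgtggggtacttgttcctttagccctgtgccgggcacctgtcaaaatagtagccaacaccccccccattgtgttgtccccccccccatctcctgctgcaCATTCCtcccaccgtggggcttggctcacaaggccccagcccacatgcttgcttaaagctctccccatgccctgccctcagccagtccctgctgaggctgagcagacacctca
Tnnt2, second start, chr13:49823809-49824088, plus strand: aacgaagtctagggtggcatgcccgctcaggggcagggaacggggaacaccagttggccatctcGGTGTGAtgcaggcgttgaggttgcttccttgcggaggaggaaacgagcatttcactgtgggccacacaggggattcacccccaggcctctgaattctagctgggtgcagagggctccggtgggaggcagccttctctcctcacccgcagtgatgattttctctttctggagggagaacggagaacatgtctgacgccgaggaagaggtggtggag
Actc1, chr3:121271798-121272077, minus strand: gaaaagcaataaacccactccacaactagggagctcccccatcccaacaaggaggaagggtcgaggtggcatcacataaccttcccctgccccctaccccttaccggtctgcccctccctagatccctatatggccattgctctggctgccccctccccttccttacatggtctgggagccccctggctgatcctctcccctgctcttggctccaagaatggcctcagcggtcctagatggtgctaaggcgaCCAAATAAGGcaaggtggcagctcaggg
Myh6, chr15:32411668-32411947, minus strand: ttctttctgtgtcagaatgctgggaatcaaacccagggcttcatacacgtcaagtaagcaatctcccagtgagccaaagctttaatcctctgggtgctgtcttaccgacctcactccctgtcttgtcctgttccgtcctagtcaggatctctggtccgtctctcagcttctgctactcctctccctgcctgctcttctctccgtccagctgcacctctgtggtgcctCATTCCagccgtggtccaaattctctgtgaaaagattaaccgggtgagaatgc
The MCAT letters, bound by TEAD factors, began 83 bases before the first Tnnt2 start and 23 bases before the Myh6 start. The CArG box, bound by serum response factor, began at base 3 after the Actc1 start. The T-box core appeared once in the 4 windows, 186 bases before the second Tnnt2 start. The bases after that start open with atg, the letters of a start codon. That entry may thus begin at the coding sequence, and its window may not be a promoter. Of 33469 rat promoter windows of this length, 14.2% held the MCAT letters, 1.64% the CArG box, 3.83% the T-box core and 14.2% the TATA box, which none of the 4 windows held. A match of letters describes the sequence only, and which starts these cells use was not tested.

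The libraries were deep, and the day 14 tables had been cut to a narrower range of cells. Over all barcodes the 5 libraries held from 104781422 to 202024200 UMIs, a UMI being the barcode of a single captured RNA molecule. The TBX18 table of day 14 held barcodes of 2001 to 5596 genes and 4885 to 33934 UMIs only, while that of day 3 held barcodes from 28 to 7771 genes. Median depth in the myocytes was 29999 UMIs at day 3 and 15473 at day 14. The TBX18 libraries shared 19 barcodes, none of which was a myocyte at both days. As a check of the labels, hTBX18 and ZsGFP had 0 UMIs in both GFP libraries, and EGFP, the reporter of the GFP virus, had 1 UMI in the TBX18 library of day 3 and 0 in that of day 14. The tables give Ensembl IDs without names, and none was found in the gene table used here. Only the 6 genes of the rule and the virus transcripts are therefore named. Whether the cells carry other myocyte genes, or pacemaker genes, was not read here.

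Myocytes made up a smaller share of the TBX18 culture at day 14 than at day 3. They were 49.9% of the 6489 cells with at least 500 genes at day 3 (48.6 to 51.1) and 13.0% of 8337 at day 14 (12.3 to 13.8). Cells with S more than 2 times M, called collagen cells here, were 45.0% and 84.3%. By the same rule the GFP libraries held 59.5% and 27.7% myocytes, and the library with A83-01 held 32.2%. The share was thus lower at day 14 under both viruses. A share of cells cannot tell fewer myocytes from more collagen cells, and the narrower range of the day 14 table bears on it too. With that range applied at day 3, the share there was 46.4%.

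**Figure D1:**
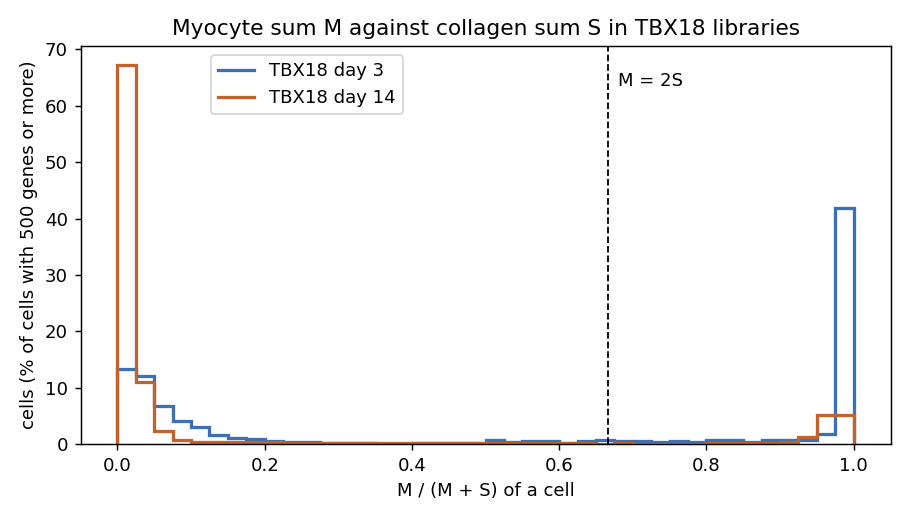
Share of cells (y axis, percent of cells with 500 genes or more) by the myocyte sum over both sums, M / (M + S) (x axis, 0 to 1), in the TBX18 libraries of day 3 and day 14. Most cells lie at either end, and few lie near the dashed line at M = 2S, to the right of which a cell is taken as a myocyte.

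The rule separated the cells with few near its edge, but the edge held different cells at the 2 days. At day 3, 187 myocytes (5.78%) had M between 2 and 4 times S, with medians of 1857 CPM for M and 552 CPM for S, where CPM is the UMIs of a gene scaled to a common total of a cell or class. The 213 cells just outside, with M between 1 and 2 times S, had medians of 8862 and 6081 CPM. Cells just inside at day 3 were thus low in both sums. At day 14 the 41 myocytes just inside (3.77%) had medians of 21004 and 7009 CPM, and the 92 cells just outside had 22597 and 16625 CPM, high in both sums. M was more than 10 times S in 89.5% of the myocytes at day 3 and in 91.1% at day 14. No collagen UMI at all was found in 9.49% of the myocytes at day 3 and in 0 of 1087 at day 14, which at 3 cells allows a share of up to 0.276%.

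The make-up of the sarcomere transcripts turned over between the days. UMIs of this 3′ kit count molecules and need no scaling by transcript length, so that the 3 genes can be set side by side. Actc1 stood at 12665 CPM in the TBX18 myocytes at day 3 and at 9930 CPM at day 14. Tnnt2 stood at 6067 CPM at day 3 and at 12928 CPM at day 14. Myh6 stood at 6041 CPM and 10269 CPM. Actc1 was therefore about as abundant as both other genes together at day 3 and the least abundant of the 3 at day 14. As log2 ratios, day 14 over day 3, these are 1.09 for Tnnt2 (1.08 to 1.10, or 2.13-fold), 0.77 for Myh6 (0.76 to 0.77, or 1.70-fold) and -0.35 for Actc1 (-0.36 to -0.34). The sum M was 24772 CPM at day 3 and 33127 CPM at day 14. Since M defined the cells, these levels describe them and test nothing. Actc1 and Myh6 have near-identical relatives, the other muscle actins and Myh7, and the sources used here do not say how reads that fit several genes were counted.

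As shares of M, Actc1 gave 51.1% at day 3 and 30.0% at day 14, Tnnt2 24.5% and 39.0%, and Myh6 24.4% and 31.0%. The order held inside single cells. Actc1 had the most UMIs of the 3 genes in 73.4% of the myocytes at day 3 (71.8 to 74.9) and in 22.4% at day 14. Tnnt2 led in 14.2% at day 3 and in 52.0% at day 14, and Myh6 in 11.4% and 24.6%. With day 3 restricted to the genes and UMIs of the day 14 table, which left 1906 myocytes, Actc1 still gave 51.4% of M at day 3. The shares of M do not depend on how the libraries are scaled, while the ratios do. Median-of-ratios scaling, which centres the typical gene at no change, lowered every log2 ratio by 0.34 and gave 0.75 for Tnnt2, 0.42 for Myh6 and -0.69 for Actc1.

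The GFP myocytes had another order of the 3 genes at day 3, while Actc1 was the lowest of them at day 14 under both viruses. Tnnt2 stood at 10123 CPM in the GFP myocytes at day 3 and 11577 CPM at day 14. Actc1 stood at 5218 CPM and 10418 CPM, and Myh6 at 6514 CPM and 12066 CPM. The log2 ratio of Actc1 was thus 1.00 under GFP and -0.35 under TBX18, opposite in direction, and that of Tnnt2 was 0.19 and 1.09. Myh6 was higher at day 14 under both viruses, with log2 ratios of 0.89 and 0.77. Tnnt2 led in 82.0% of the GFP myocytes at day 3, and at day 14 Myh6 led in 43.5% and Tnnt2 in 33.7%. With A83-01 at day 14 Actc1 led in 52.9% of the myocytes and stood at 12583 CPM. The 2 comparisons over time share no library, and with 1 library a group the difference between them was not tested.

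**Figure D2:**
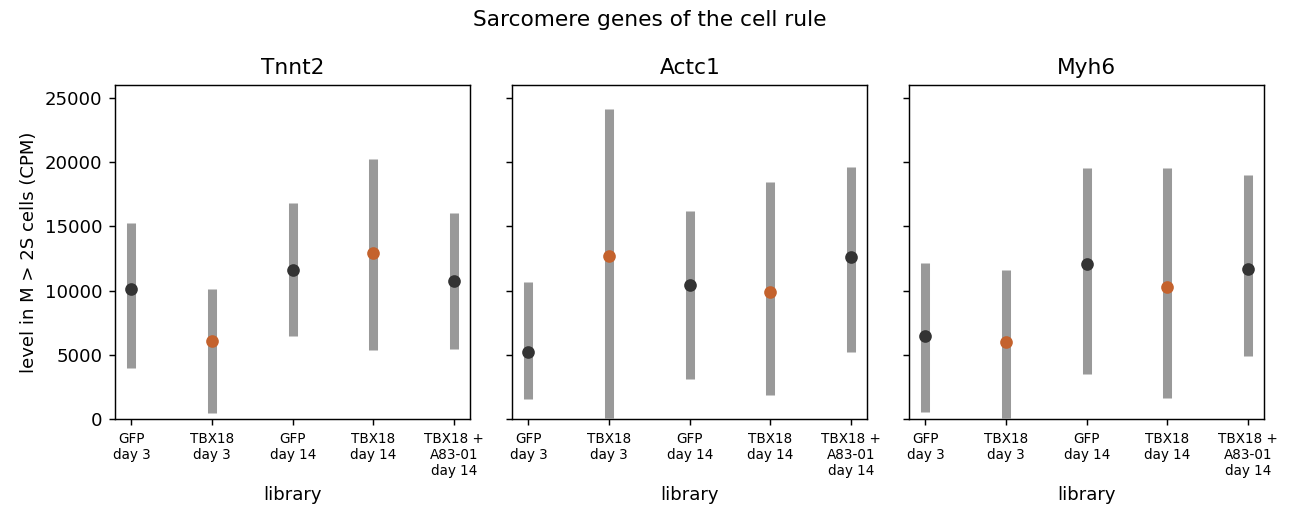
Level of Tnnt2, Actc1 and Myh6 (y axis, CPM) in the myocytes of each library (x axis). Points are summed UMIs over total UMIs, orange for the TBX18 libraries compared here, and grey bars span the 5th to the 95th percentile of single cells. Actc1 stands highest of the 3 in the TBX18 library of day 3 (12665 CPM), where Tnnt2 stands at its lowest (6067 CPM), and the bars of all libraries overlap.

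Cells low in all 3 sarcomere genes were found mostly at day 3. Single myocytes of day 3 ranged from 1144 CPM of M at the 5th percentile, over a median of 26638 CPM, to 41018 CPM at the 95th. At day 14 these values were 12605, 34023 and 49449 CPM. M was under 5000 CPM in 417 of the 3236 myocytes at day 3 (12.9%) and in 17 of 1087 at day 14 (1.56%). In the GFP myocytes the shares were 3.43% and 0.954%. The range of the day 14 table, applied at day 3, left 215 such cells (11.3%, 9.89 to 12.8), so that the low cells of day 3 were not only barcodes with few genes. The bound of 5000 CPM was chosen after seeing the data, and whether these cells are myocytes rests on the rule alone.

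The virus transcripts were much lower at day 14. hTBX18 stood at 22.1 CPM (21.2 to 23.1, from 2091 UMIs) in the myocytes of day 3 and at 9.11 CPM (7.75 to 10.6, from 160 UMIs) in those of day 14. ZsGFP stood at 54.0 CPM (52.5 to 55.5) and 8.20 CPM (from 144 UMIs). The log2 ratio was -1.28 for hTBX18 (-1.52 to -1.05) and -2.72 for ZsGFP (-2.97 to -2.48). The drop was therefore larger for the reporter than for TBX18, and the ratio of hTBX18 to ZsGFP UMIs was 0.410 at day 3 (0.389 to 0.431) and 1.11 at day 14 (0.882 to 1.40). This ratio needs no scaling between libraries, but the tables of day 3 and day 14 differ in gene list, unit and cell range. For it, as for the other values compared between the days, the day and the making of the table cannot be told apart. In the collagen cells hTBX18 and ZsGFP had 200 and 663 UMIs at day 3, and 136 and 127 UMIs at day 14. In the myocytes of the library with A83-01 the ratio was 1.17 (0.996 to 1.37). The reporter of the other virus was higher at day 14. EGFP in the GFP myocytes stood at 92.9 CPM at day 3 and 163 CPM at day 14, and that difference between the viruses was not tested.

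The share of myocytes in which virus RNA was seen was lower too. With every cell thinned to 5000 UMIs, which left out 93 shallower cells at day 3 and 0 at day 14, hTBX18 was seen in 8.59% of the myocytes at day 3 (7.63 to 9.63) and in 3.31% at day 14 (2.33 to 4.56). ZsGFP was seen in 12.5% and 3.50%. In the collagen cells of the same libraries, whose median depths over all UMIs were 28102 and 15502, the thinned shares were 0.654% and 0.484% for hTBX18 and 1.45% and 0.456% for ZsGFP. Virus RNA was thus seen in a larger share of myocytes than of collagen cells at both days, with intervals that did not overlap. Cells of 1 library are not replicates, and the difference was not tested. Without thinning, hTBX18 was seen in 28.3% of the myocytes at day 3 and 10.1% at day 14, and ZsGFP in 32.2% and 9.29%. Both transcripts were often seen in the same cells. Of myocytes positive for hTBX18, 62.7% were positive for ZsGFP at day 3 and 38.2% at day 14, against 20.1% and 6.04% of those without, whose depth was lower (28924 and 15201 UMIs at the median, against 32596 and 18567). The depth does not allow a cell with no such UMI to be called uninfected.

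**Figure D3:**
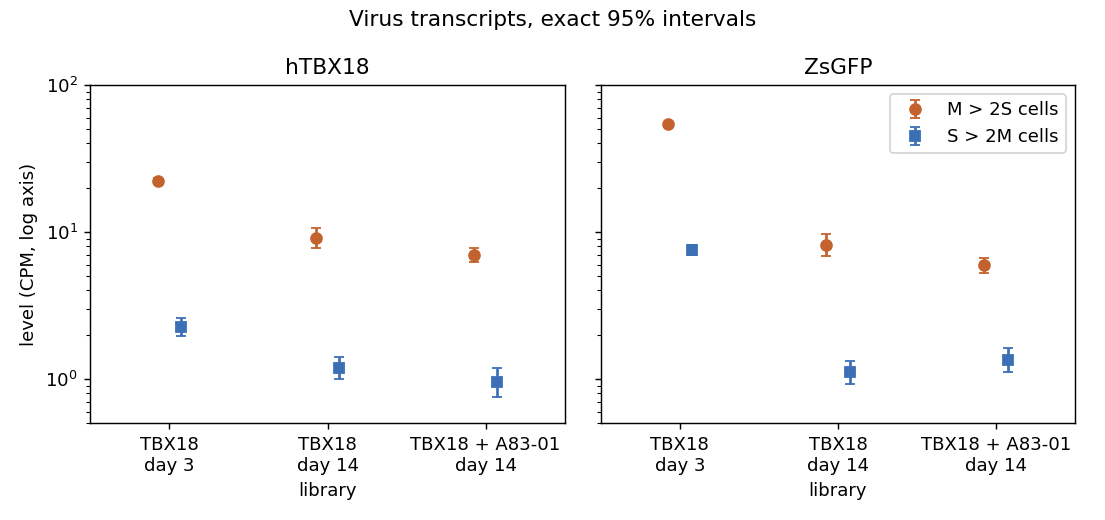
Level of hTBX18 and ZsGFP (y axis, CPM, log axis) in myocytes (M > 2S, orange) and collagen cells (S > 2M, blue) of the 3 libraries with the TBX18 virus (x axis). Bars are exact 95% intervals of counting error. ZsGFP in myocytes stands at 54.0 CPM at day 3 and at 8.20 CPM at day 14, and every myocyte value lies above that of the collagen cells.

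Among cells that met the myocyte rule at each day, virus RNA was most abundant in those with the least sarcomere RNA. M is part of that rule, and whether the cells lowest in M are myocytes rests on the rule alone. In the collagen cells of day 3, M stood at 1893 CPM at the 95th percentile. At day 3 hTBX18 stood at 81.1 CPM (75.4 to 87.2) in the 417 myocytes with M under 5000 CPM. It stood at 31.3 CPM (28.8 to 34.0) in the 628 with M from 5000 to 20000 CPM, and at 11.7 CPM (10.9 to 12.5) in the 2191 with more, bounds that were also chosen after seeing the data. ZsGFP stood at 268, 91.3 and 15.1 CPM in the same 3 classes. The level of both transcripts was thus lower in each class of higher M. At equal depth hTBX18 was seen in 23.2%, 12.6% and 4.90% of these cells. At day 14 the order was the same on far fewer UMIs, with 38.6 CPM of hTBX18 (17.7 to 73.3, from 9 UMIs in 17 cells), 19.0 CPM (13.2 to 26.4) and 7.49 CPM (6.19 to 8.98). The intervals of the lowest and the middle class overlapped. In the library with A83-01, hTBX18 stood at 29.1, 27.7 and 5.63 CPM in these classes and ZsGFP at 26.8, 35.0 and 4.19 CPM. ZsGFP was thus not highest there in the class of lowest M, which held 34 cells.

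The low cells of day 3 held much of the virus RNA of that day. The 417 cells held 737 of the 2091 hTBX18 UMIs and 2431 of the 5104 ZsGFP UMIs. Among myocytes with at least 5000 CPM of M at both days, the log2 ratio was -0.86 for hTBX18 and -2.04 for ZsGFP. Inside the range of the day 14 table, the low cells of day 3 had 71.1 CPM of hTBX18 and the others 13.4 CPM. Both virus transcripts were lower at day 14 under every alternative tried, from -0.86 to -1.90 for hTBX18 and from -2.04 to -3.24 for ZsGFP.

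The fibrillar collagen genes, low in these cells by construction, were higher at day 14. Col1a1, a chain of type I collagen, stood at 192 CPM at day 3 and 586 CPM at day 14. Col1a2, its other chain, stood at 134 and 296 CPM, and Col3a1, the chain of type III collagen, at 124 and 454 CPM. The same genes were also higher in the collagen cells at day 14, where Col1a1 stood at 4663 and then 14882 CPM. Set against the collagen cells of their own library, the myocytes held 4.12% of the Col1a1 level at day 3 and 3.94% at day 14, 3.57% and 3.07% of Col1a2, and 3.75% and 3.88% of Col3a1. These percentages hardly moved between the days. They did move among myocytes with M above 10 times S, where the 3 genes stood at 1.05%, 0.623% and 1.20% of the collagen cells at day 3 and at 2.84%, 2.18% and 2.92% at day 14. The log2 ratios of 1.61, 1.14 and 1.87 became 3.11, 3.17 and 3.10 there. They lay between 3.06 and 3.25 without the cells of highest doublet score or inside the range of the day 14 table. A bound of 10 times S selects on these genes themselves, and the other alternatives fell mostly on day 3. The doublet score took out 142 myocytes at day 3 and 7 at day 14. The range left 1906 of 3236 myocytes at day 3 and all 1087 at day 14. Collagen UMIs were unevenly spread at day 3, when the median myocyte had 35.2 CPM of Col1a1 at day 3 and 424 CPM at day 14. Free RNA and mixed droplets were not tested as sources of these UMIs.

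Transcripts were spread over more genes at day 14. At 5000 UMIs a cell, the median number of genes in a TBX18 myocyte was 1531 at day 3 (25th to 75th percentile of cells 1442 to 1624) and 1805 at day 14 (1717 to 1904). Day 3 gave 1517 inside the range of the day 14 table. These spans of the 2 days did not overlap. In GFP myocytes the medians were 1548 and 1616, with spans that overlapped, and with A83-01 the median was 1487. Collagen cells of the TBX18 libraries also had more genes at day 14, with medians of 1656 and 1966. In summed counts, 103 genes held 50% of the UMIs of the TBX18 myocytes at day 3 and 180 genes did at day 14, against 110 and 96 in the GFP myocytes. The 10 leading genes held 24.0% and 17.7% in the TBX18 myocytes. RNA of collagen cells in the same droplets would also add genes, and its part in this was not tested.

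**Figure D4:**
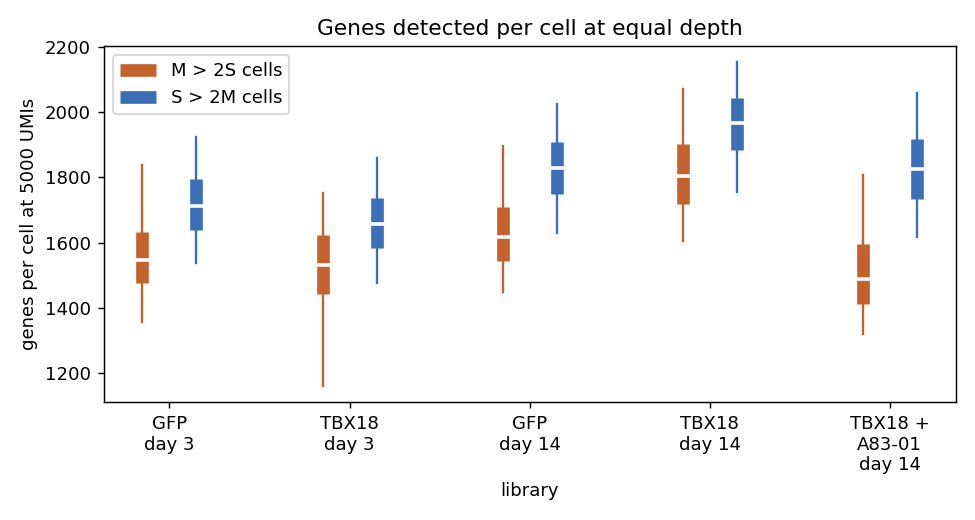
Genes detected per cell after each cell was thinned to 5000 UMIs (y axis) in myocytes (orange) and collagen cells (blue) of each library (x axis). White marks are medians, thick bars the 25th to the 75th percentile of cells and thin lines the 5th to the 95th percentile. The TBX18 myocytes of day 14 have the highest median of the 5 myocyte classes, 1805 genes.

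Over the whole table more genes stood higher than lower at day 14. Of 4589 genes that averaged 20 CPM or more, 715 were at least 2-fold higher (15.6%) and 153 at least 2-fold lower (3.33%), so that 82.4% of the genes past 2-fold were higher. This split depends on the scaling, and median-of-ratios scaling gave 377 higher and 326 lower, or 53.6% higher. The median log2 ratio was 0.34 with a standard deviation over genes of 0.92, and the 5th and 95th percentiles were -0.79 and 1.62. All 6 genes of the rule, whose levels chose the cells, are in that table. Tnnt2 passed 2-fold, and so did Col1a1, Col1a2 and Col3a1, with log2 ratios of 1.61, 1.14 and 1.87. With median-of-ratios scaling Tnnt2 (log2 ratio 0.75) and Col1a2 (0.80) did not pass. Myh6 and Actc1 passed under neither scaling. Of 3294 genes at 20 to 100 CPM, 16.3% were higher and 2.49% lower, and of 1154 genes at 100 to 1000 CPM, 14.6% were higher and 4.59% lower. Of 141 genes above 1000 CPM, 6.38% were higher and 12.8% lower. Collagen cells were 45.0% of the cells at day 3 and 84.3% at day 14. Their RNA in the droplets of myocytes was not tested as a source of these differences.

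The GFP myocytes, over 4400 genes, had 442 higher (10.0%) and 383 lower (8.70%), with a median log2 ratio of 0.01. Of the 4201 genes measured in both comparisons, 644 were at least 2-fold higher under TBX18 and 412 under GFP. The 258 genes higher under both were 40.1% of the TBX18 list and 62.6% of the GFP list. The 105 genes lower under both were 76.6% of the 137 lower under TBX18 and 30.6% of the 343 lower under GFP. Over all genes of each comparison, 15.6% were higher and 3.33% lower under TBX18, against 10.0% and 8.70% under GFP. The log2 ratios differed by 1 or more at 510 genes (12.1%). The median difference of 0.32 between the comparisons was not subtracted for this count, nor for the lists above, whose lengths depend on the scaling. Across genes, which are not independent replicates, the ratios of both viruses had a Pearson's r of 0.75. They share no library, but both set a day 14 table against a day 3 table.

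**Figure D5:**
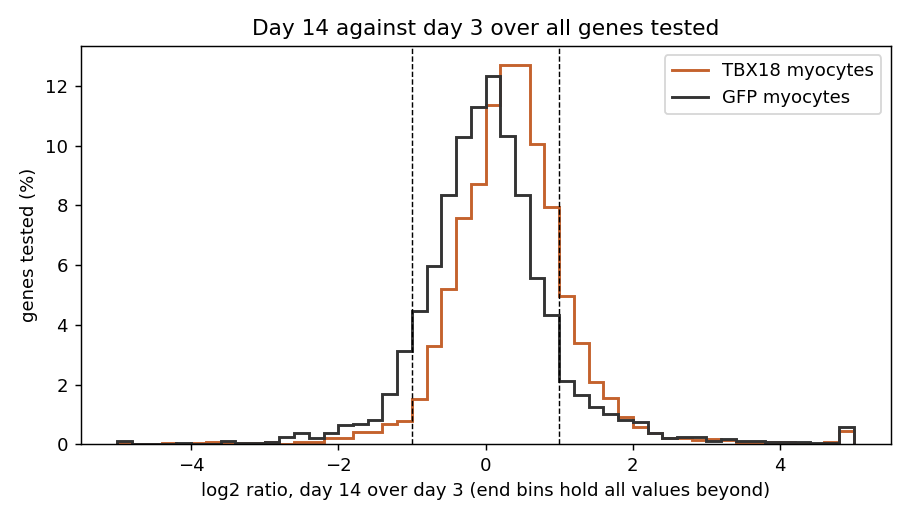
Share of genes tested (y axis, percent) by their log2 ratio of day 14 over day 3 (x axis) in TBX18 myocytes (orange) and GFP myocytes (black), with dashed lines at 2-fold. The TBX18 curve lies to the right of the GFP curve, with medians of 0.34 and 0.01.

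The IDs with the widest differences behaved alike in every cell class. ENSRNOG00000023365 stood at 0.148 CPM in the TBX18 myocytes of day 3 and 222 CPM at day 14 (log2 ratio 10.55, 9.80 to 11.42). ENSRNOG00000047351 stood at 0.169 and 152 CPM (log2 ratio 9.81, 9.11 to 10.62). ENSRNOG00000032303 had 20281 UMIs at day 3 (215 CPM) and 0 at day 14, at least 1257-fold lower against a floor of 3 counts over the class. ENSRNOG00000029627 stood at 74.8 CPM at day 3 and had 2 UMIs at day 14, a log2 ratio of -9.36 (-12.41 to -7.51). All 4 were on the same side of the same gap in the GFP myocytes, in the TBX18 collagen cells and in the library with A83-01. ENSRNOG00000032303 stood at 254 CPM in the GFP myocytes of day 3 and had 1 UMI in those of day 14. In the TBX18 myocytes 31 IDs (0.676%) were at least 16-fold higher, and 24 of them were so in GFP myocytes and TBX18 collagen cells too. Of 7 IDs (0.153%) at least 16-fold lower, 5 were so in all 3 classes. The tables of the 2 days differ in gene list, unit and cell range. For such IDs, as for every comparison between the days, the day and the making of the table cannot be told apart. Without the 29 IDs found in all 3 classes, 691 genes were at least 2-fold higher and 148 lower.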

How the data were processed

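Per the labels' protocols, single cells were captured in droplets with a 3′ kit, and libraries were read on an Illumina sequencer. The submitters' processing notes name STAR 2.7.8a, Partek and the build Rnor_6.0, without their roles. By their values, the authors' tables of day 3 hold estimated counts (UMIs), 99.7% of them whole within 0.05. Day 14 tables were deposited as log2 values, log2 of CPM plus 1 within each cell, since undone values summed to between 999991 and 1000009. UMIs were recovered there by setting each cell's commonest value above 0 to 1 UMI, after which 99.7% of values were whole within the same tolerance. How cells and genes were filtered, and how a UMI fit to several genes was counted, is not given in the sources used here.

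UMIs were summed over the myocytes of a library and divided by their total over the genes listed in all tables, after rounding, to give CPM. Log2 ratios over all genes carried a pseudocount of 0.5 CPM, which understates the change of low genes, and those of named genes none. Genes that averaged 20 CPM or more were set against a 2-fold bound. Ratios carry exact conditional binomial intervals, levels exact Poisson intervals and shares exact Clopper-Pearson intervals. Counting was checked on simulated data. Scrublet, from scanpy 1.11.5, scored doublets in Python 3.11.15 with scipy 1.17.1. Its own bound marked 3.24% of the day 3 library and 0 of the day 14 library, so that it gave no calls to use at day 14. Why it gave none was not tested. Cells were kept, and the top 6% of scores were left out as an alternative.

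The members, the lists and the bounds were chosen with earlier results of these data known. None of the 17060 Ensembl IDs was found in the gene table used here. The planned gene lists, marker lists, scaling without mitochondrial genes and most named genes were therefore not analysed here. The rule for IDs without a name takes the 2 highest and the 2 lowest by the inner end of the interval, beside the 6 genes of the cell rule and the virus transcripts.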

Additional observations from a re-analysis of the deposited data

Results flagged for a closer look

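Actc1 stood out because its difference between the days had opposite directions under the 2 viruses. Its log2 ratio, day 14 over day 3, was -0.35 in TBX18 myocytes and 1.00 in GFP myocytes. With 1 library a group this was not tested.

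Barcodes with fewer than 500 genes, which entered no comparison, held virus RNA in the TBX18 library of day 3. There 292 such barcodes, of which 166 had M above 2 times S, held 5 ZsGFP UMIs (1.69 CPM), more than the 3 counts that finding 0 would allow. Their 2 hTBX18 UMIs (0.675 CPM) were fewer than that. Cells with at least 500 genes in the same library had 32.7 CPM of ZsGFP. Free RNA was not tested as a source. In the GFP library of day 3, a culture not given ZsGFP, 731 barcodes had fewer than 500 genes. They held 0 ZsGFP UMIs and 4 UMIs of their own reporter EGFP (0.767 CPM).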

How the results depend on the processing

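No paired analysis was possible because each group has 1 library. With 1 library a group no library could be left out, and the planned scaling without mitochondrial genes could not be run. No log2 ratio changed direction under the alternatives run on it. With median-of-ratios scaling 377 genes were higher and 326 lower, with no minimum level 2450 and 559, and with a minimum of 100 CPM 177 and 71, against 715 and 153. The hTBX18 log2 ratio of -1.28 was -1.62 with median-of-ratios scaling, -1.69 as a mean over cells, -1.90 in thinned cells and -0.86 with at least 5000 CPM of M. The ZsGFP ratio of -2.72 was -3.06, -3.24, -3.20 and -2.04 under these, and -2.43 with M above 10 times S. Why the virus ratios moved was not tested. The myocyte share at day 3 was 53.2% with M above S, 44.6% with M above 10 times S, 46.4% in the day 14 range and 43.4% with at least 5000 CPM of M. At day 14 it was 14.1% and 11.9% under the first and second of these. The share of myocytes with hTBX18 was 28.3% and 10.1% without thinning and 4.11% and 1.56% at 2000 UMIs. That with ZsGFP was 32.2% and 9.29%, and 7.17% and 1.47%. Alternatives with a minimum on M, without shared barcodes, with detection from 0.5 UMI, and without IDs apart in all classes were chosen after seeing the data. Depth limits the virus values of day 14, which rest on 160 and 144 UMIs and on 9 hTBX18 UMIs in the class of lowest M.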
